A study of Homo sapiens with 16 samples.

Results

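The response of open chromatin to depletion of ITGA7 was compared between Cal33 and SAS, established HPV-negative lines of squamous carcinoma of the head and neck. All 16 of the 16 libraries of the series enter the comparison. Each line had 4 biological replicates with siControl, a non-targeting siRNA, and 4 with siITGA7, an siRNA against ITGA7. All cells were transfected, placed in a three-dimensional laminin-rich matrix after 24 h, and gave nuclei after 48 h, so every group carries the transfection and the matrix. Each line is 1 genetic background, so a difference between the lines is a difference between these lines. The quantity examined is the log2 change after siITGA7 in Cal33 minus the log2 change in SAS, called the difference below. A positive difference means a more positive change in Cal33, and a negative one a more positive change in SAS.

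ITGA7 encodes the alpha 7 chain of an integrin that pairs with beta 1 and binds laminin, the main protein of basement membranes. Integrins link the matrix to the actin cytoskeleton through focal adhesions, and signals from these sites reach the nucleus through kinases and through co-activators such as YAP. ATAC-seq uses a transposase that cuts accessible DNA, so counts in a peak report how open a promoter or enhancer is over many cells. In such bulk samples, a smaller share of cells with an open site and a less open site in each cell cannot be told apart.

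Accessibility of ITGA7 itself gave no detectable difference between the lines, and siRNA acts on the transcript, so its peaks do not check the knockdown. Of 4 peaks annotated in the gene, 2 held enough counts to be tested. Coordinates here and below are those of the deposited files, on GRCh38 per the submitters' processing notes. The promoter peak that ITGA7 shares with the start of BLOC1S1 (chr12:55715815-55718019) had a difference of 0.24 ± 0.22 (SE, adjusted p = 0.698). A second promoter-class peak of ITGA7 (chr12:55700336-55701076), with at most 22 counts in any library, had a difference of 0.43 ± 0.60 (SE, adjusted p = 0.823). For the lineage of both lines, promoter-class peaks of 4 squamous epithelial markers had a median of 34.1 CPM (counts scaled to the library total) in Cal33 siControl, 31.6 in Cal33 siITGA7, 31.4 in SAS siControl and 35.2 in SAS siITGA7. Those of 5 endothelial and blood markers had medians of 1.99, 1.93, 2.08 and 1.86 CPM, and those of 3 fibroblast markers 6.05, 8.53, 10.3 and 10.7 CPM, in the same order.

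Depth moved with treatment in opposite directions in the lines. Total counts in peaks ran from 3980563 to 8367079 in Cal33 siControl, from 8646532 to 13285086 in Cal33 siITGA7, from 1766033 to 4870187 in SAS siControl and from 758590 to 1867047 in SAS siITGA7. The change in log2 total counts was 0.75 in Cal33 and -1.36 in SAS, a difference of 2.12 (two-sided exact permutation p = 0.00122 over 4900 arrangements, n = 4 per group). Depth thus moved along with the contrast itself, and its part in the results below was not tested beyond thinning of the libraries to equal depth. The SAS siITGA7 libraries are the shallowest. The median standard error of the change was 0.25 in Cal33 and 0.36 in SAS, and that of the difference was 0.47.

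The lines differed in their response at 722 of 94918 tested peaks, or 0.761% (edgeR quasi-likelihood test, adjusted p under 0.05 over all tested peaks). At 466 peaks (0.491%) the change was more positive in Cal33, and at 256 (0.27%) it was more positive in SAS. The median size was 1.01 for the first set and -1.65 for the second, and the smallest called difference was 0.62 on the log2 scale. At an unadjusted p under 0.05 there were 12371 peaks. The split between the directions depended on the scaling, the filter and the tool. With TMM factors 64.5% of calls were more positive in Cal33, and 67.5% of 1014 with total counts, but 41.6% of 563 with median-ratio factors and 38.6% of 1121 with offsets trended on peak level. It was 85.1% of 1441 with no filter, 46.2% of 959 with a mean of at least 50 counts and 44.1% of 830 with the filter in each line. Other tools, which also change the model, gave 45.0% of 260 (DESeq2) and 45.5% of 807 (limma-voom). Depth and libraries moved the number of calls. Thinning to the smallest library gave 85 calls among 25658 tested peaks, and 47 of them were among the 722. There were 1495 calls without Cal33 siControl replicate 3 and 470 without SAS siControl replicate 3. Without SAS siControl replicate 4 there were 446, and without SAS siITGA7 replicate 4 there were 421. In the 13 libraries with 1 sequencing run each there were 1631 calls, 79.6% of them more positive in Cal33. The libraries with 2 runs were all Cal33, and 3 are too few for a fit of their own.

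Most differing peaks changed in 1 line and were not called in the other. In the same fit 8273 peaks (8.72%) changed in Cal33 and 2887 (3.04%) in SAS. Of the 466 peaks more positive in Cal33, 278 (59.7%) rose in Cal33 and were not called in SAS, 118 (25.3%) fell in SAS and were not called in Cal33, 31 rose in Cal33 and fell in SAS, and 39 were called in neither line. Among the 256 peaks more positive in SAS, 111 (43.4%) fell in Cal33 alone, 102 (39.8%) rose in SAS alone, 14 fell in Cal33 and rose in SAS, 28 were called in neither line and 1 rose in both. In all, 45 peaks therefore had called changes of opposite sign. The median change of the peaks more positive in Cal33 was 0.59 in Cal33 and -0.51 in SAS, and that of the peaks more positive in SAS was -0.66 in Cal33 and 0.95 in SAS.

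**Figure D1:**
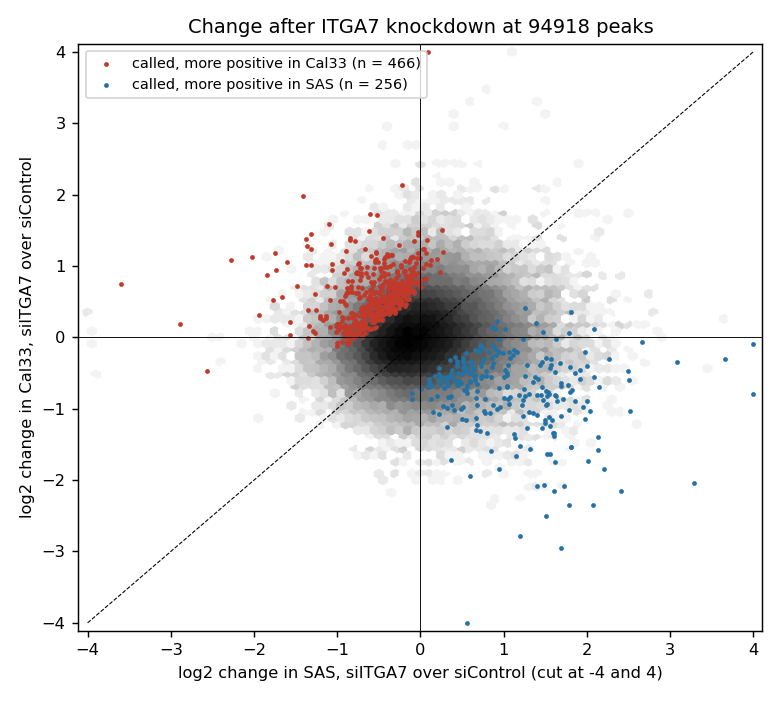
Log2 change after siITGA7 in SAS (horizontal) and Cal33 (vertical) at each tested peak, with grey density on a log scale for all peaks and colour for called differences; values beyond 4 are drawn at the edge. The 466 peaks more positive in Cal33 lie above the dashed line of equal change and the 256 more positive in SAS below it.

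Set side by side, the changes of the lines had little in common over all peaks and more in well-covered ones. Across 94918 peaks the Pearson correlation of the Cal33 and SAS changes was 0.06 and the Spearman correlation 0.09, and across 23785 peaks with a mean of at least 50 counts they were 0.22 and 0.25. These are descriptions across peaks, which share libraries and are not independent replicates. By class, Spearman values were 0.13 in promoters, 0.06 in exons, 0.06 in introns, 0.04 at transcription ends and 0.05 between genes.

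Shared calls were counted next. Of 4487 peaks that fell in Cal33, 262 also fell in SAS (5.84%, against 1.37% of all tested peaks), and 68.3% had a SAS change below 0 (50.9% of all). Of 3786 peaks that rose in Cal33, 43 also rose in SAS (1.14%, against 1.67% of all), and 56.3% had a SAS change above 0 (49.0% of all). Seen from SAS, 20.2% of 1300 lower peaks also fell in Cal33 (4.73% of all), and 2.71% of 1587 higher peaks also rose there (3.99% of all). Promoters carried most of the shared part: 199 of the 262 peaks that fell in both lines were promoter-class. No promoter-class peak rose in both lines, while 297 rose in Cal33 and 140 in SAS, of 16598 tested. Both sets are small shares of the promoter peaks. Little overlap is thus expected even between unrelated sets, and the overlap was not tested. A difference between the lines was called at 42 (14.1%) of those 297 promoter peaks. Of the 1981 promoter peaks that fell in Cal33 it was called at 25 (1.26%). From the SAS side the shares were alike: 12 (8.57%) of the 140 that rose and 67 (7.82%) of the 857 that fell. Over all tested promoter peaks the share was 0.916%. The change of each line is part of the difference, so choosing peaks by its call enters these shares.

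Promoter-class peaks made up 115 of the 466 peaks more positive in Cal33 and 37 of the 256 more positive in SAS. This was 0.693% and 0.223% of 16598 tested promoter peaks, against 0.491% and 0.27% of all tested peaks. Their median change was -0.12 in Cal33 and -0.20 in SAS, a median difference of 0.08 against 0.02 over all peaks. With median-ratio factors the median difference of promoters was 0.01 against -0.05 over all peaks, so the median of promoters moves with the scaling and the sign over all peaks flips. Without Cal33 siControl replicate 3 the medians of promoters and of all peaks were both 0.04. Peaks at transcription ends had the opposite split, with 12 more positive in Cal33 and 26 more positive in SAS of 5147, and a median difference of -0.07. Introns had 185 and 105 of 42600, intergenic peaks 133 and 72 of 25677, and exons 20 and 14 of 4763. The 133 tested peaks without a class had a median difference of -0.48.

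The share of counts in each class did not differ detectably in its response between the lines. Promoters took 44.4% ± 3.07 (SD, n = 4) of counts in Cal33 siControl, 41.0% ± 0.787 in Cal33 siITGA7, 33.7% ± 0.422 in SAS siControl and 30.1% ± 0.364 in SAS siITGA7. Thus the promoter share changed by -3.33 points in Cal33 and -3.59 points in SAS, 0.258 points apart (two-sided exact permutation, adjusted p = 0.908 over 5 classes). Transcription ends came nearest, with a difference of -0.218 points (exact permutation p = 0.153, adjusted p = 0.765).

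**Figure D2:**
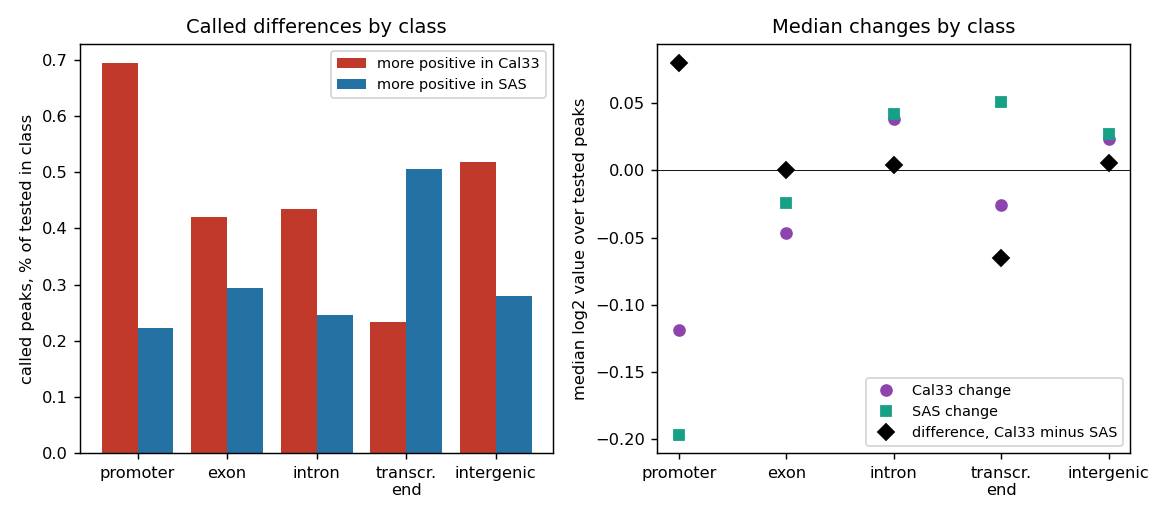
Left, called differences as a percentage of the tested peaks of each annotation class, in both directions. Right, the median log2 change in each line and the median difference per class. Of the 5 classes drawn, promoters have the lowest median changes (-0.12 and -0.20) and transcription ends the lowest median difference (-0.07); the 133 peaks without a class are not drawn.

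The starting level of a peak went with the direction of its difference. Peaks were binned by their siControl level in Cal33 minus that in SAS, in log2 CPM. Where Cal33 started more than 2 above SAS, 2 of 6832 peaks were more positive in Cal33 and 58 were more positive in SAS, with a median difference of -0.30. Where SAS started more than 2 above Cal33, 62 of 9987 were more positive in Cal33 and 23 in SAS, with a median difference of 0.28. Between -1 and 1 the counts were 255 and 89 of 41783, with a median of 0.04. The siControl libraries enter both the level and the difference with opposite sign, so errors in them alone give such a slope, and no test is made.

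Binned instead by the mean over both treatments, the outer bins of all tested peaks both had medians below 0. In the bin above 2 the counts became 20 and 26 of 6630, with a median difference of -0.12, and in the bin below -2 they became 31 and 53 of 9211, with a median of -0.07 where the siControl bin gave 0.28. The share of peaks called in either direction was between 0.601% and 0.878% in all 5 siControl bins, near the 0.761% over all peaks. Among the 38393 peaks that pass the count filter in each line apart, calls were taken from the fit of all 94918 tested peaks. In the siControl bins they were 3.33% below -2, 1.40% between -1 and 1 and 1.46% above 2. The 0.761% covers all tested peaks and is not the share of this set. A fit of these peaks alone gave 830 calls, 366 more positive in Cal33 and 464 in SAS. Binned by both treatments, the shares of those peaks still differed between the outer bins: 3.02% were called below -2 (2.12% more positive in Cal33, median difference 0.12) and 1.17% above 2 (0.559% more positive in Cal33, median 0.00038). Between -1 and 1 the share was 1.51%. Of the 466 peaks more positive in Cal33, 255 (54.7%) had siControl levels within 2-fold of each other, as did 89 (34.8%) of the 256 more positive in SAS and 44.0% of all tested peaks.

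**Figure D3:**
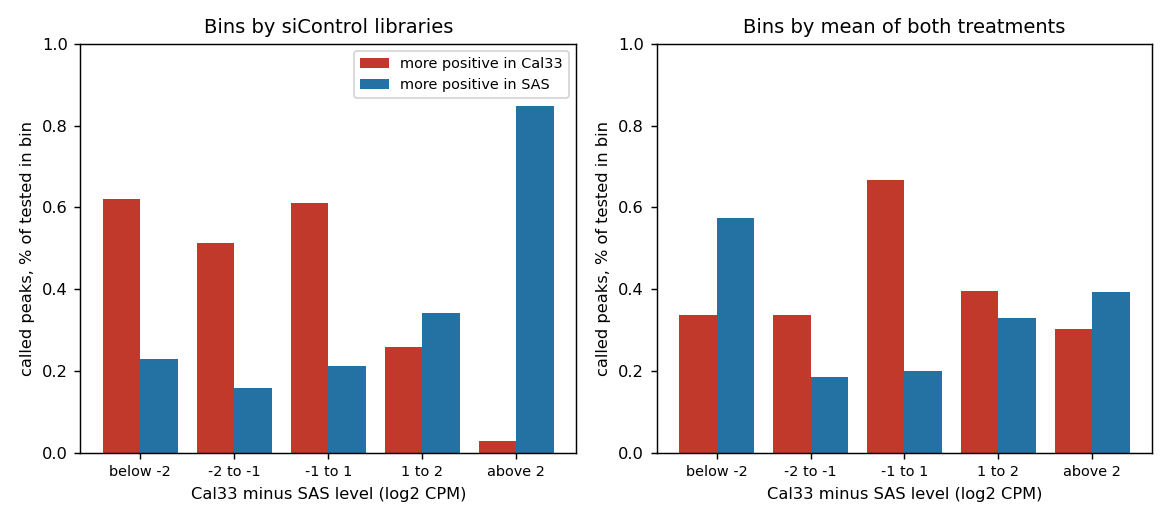
Called differences as a percentage of tested peaks in bins of the level in Cal33 minus that in SAS, by siControl libraries (left) and by the mean of both treatments (right). On the left the peaks more positive in SAS reach their highest share where Cal33 starts higher (58 of 6832); on the right that bin holds 26 of 6630.

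Calls also followed level and width. Of the 18984 peaks with the highest mean level 309 (1.63%) were more positive in Cal33 and 86 (0.453%) in SAS. Of the 18984 lowest they were 4 (0.0211%) and 37 (0.195%), against 0.491% and 0.27% of all tested peaks. The median standard error of the difference was 0.22 in the highest set and 0.74 in the lowest. Its part in these shares was not tested. The median difference was 0.10 in the highest set and -0.12 in the lowest. Among the 23707 widest peaks 1.46% were called and among the 23779 narrowest 0.273%. Within 1 kb of an annotated start 97 and 27 of 13684 peaks were called (0.906%, against 0.761% of all tested peaks).

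Differing peaks were spread over the genome. Among 571 windows of 5 Mb with at least 20 tested peaks, 221 held no called peak and the fullest held 11. The median difference was above 0.3 in 5 windows and below -0.3 in 13. By chromosome the medians ran from -0.10 on chromosome 19 to 0.17 on chromosome 18. The directions were split unevenly. On chromosome 5, 44 of 5633 peaks were more positive in Cal33 (0.781%) and 4 in SAS (0.071%). On chromosome 19 they were 5 (0.166%) and 16 (0.53%) of 3021. Over all tested peaks the shares were 0.491% and 0.27%. In either direction 0.852% and 0.695% were called on these chromosomes, near the 0.761% of all. The split over all peaks moved with the scaling, and by chromosome it was read with TMM factors only. Of 370 peaks on contigs outside the chromosomes 2.43% were called, with a median difference of -0.30. Of 521 named genes with a called peak, 9 had 2 and none had called peaks in both directions. In the first 40 Mb of chromosome 12, 9 and 5 of 2302 peaks were called (0.608%, against 0.761% of all). The median change there was 0.06 in Cal33 and 0.25 in SAS, against -0.01 in each line over all tested peaks.

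Among peaks with the clearest gain in Cal33 was one in the keratin cluster. KRT8 and KRT18 encode the paired keratins of simple epithelia, which form the intermediate filaments of many carcinoma cells. A promoter-class peak annotated in KRT8, with KRT18 as the nearest start (chr12:52924993-52927756), had a difference of 1.15 ± 0.18 (SE, adjusted p = 4.08e-05). It lies at -22512 bases from the KRT18 start. In Cal33 it read 5.36, 5.45, 5.56 and 5.61 log2 CPM in the siControl libraries and 6.39, 6.63, 6.78 and 6.59 after siITGA7; in SAS the siControl libraries read 5.50, 5.65, 5.96 and 5.72 and the siITGA7 libraries 5.83, 5.90, 5.24 and 5.69. The Cal33 groups are far apart and the SAS groups overlap. Its change was 1.11 ± 0.12 (adjusted p = 8.91e-12) in Cal33 and -0.05 ± 0.14 (adjusted p = 0.924) in SAS. A promoter-class peak annotated in KRT18, with KRT8 as the nearest start, went the other way in mean level, from 51.6 to 42.0 CPM in Cal33 and from 42.9 to 46.4 CPM in SAS.

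A peak near a cytokine gene also rose in Cal33 and was not called in SAS. LIF encodes leukaemia inhibitory factor, a cytokine of the interleukin 6 family, and the peak upstream of it (chr22:30250668-30251878) had a difference of 1.40 ± 0.25 (SE, adjusted p = 0.000533). The 4 Cal33 siControl libraries stood at 3.47, 3.43, 3.30 and 3.24 log2 CPM and the 4 treated ones at 4.05, 4.44, 4.44 and 4.08; in SAS the siControl libraries read 4.01, 4.15, 4.10 and 3.73 and the siITGA7 libraries 3.19, 3.78, 3.37 and 3.58. All Cal33 siITGA7 libraries lie above their controls, and in SAS the highest treated library lies just above the lowest control. An intron-class peak next to the start of CSF2, the gene of the growth factor GM-CSF, had a difference of 0.76 ± 0.19 (SE, adjusted p = 0.0291), with a change of 0.52 ± 0.13 (adjusted p = 0.00377) in Cal33 and -0.23 ± 0.14 (adjusted p = 0.441) in SAS. That call was lost under 11 of its alternatives.

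**Figure D4:**
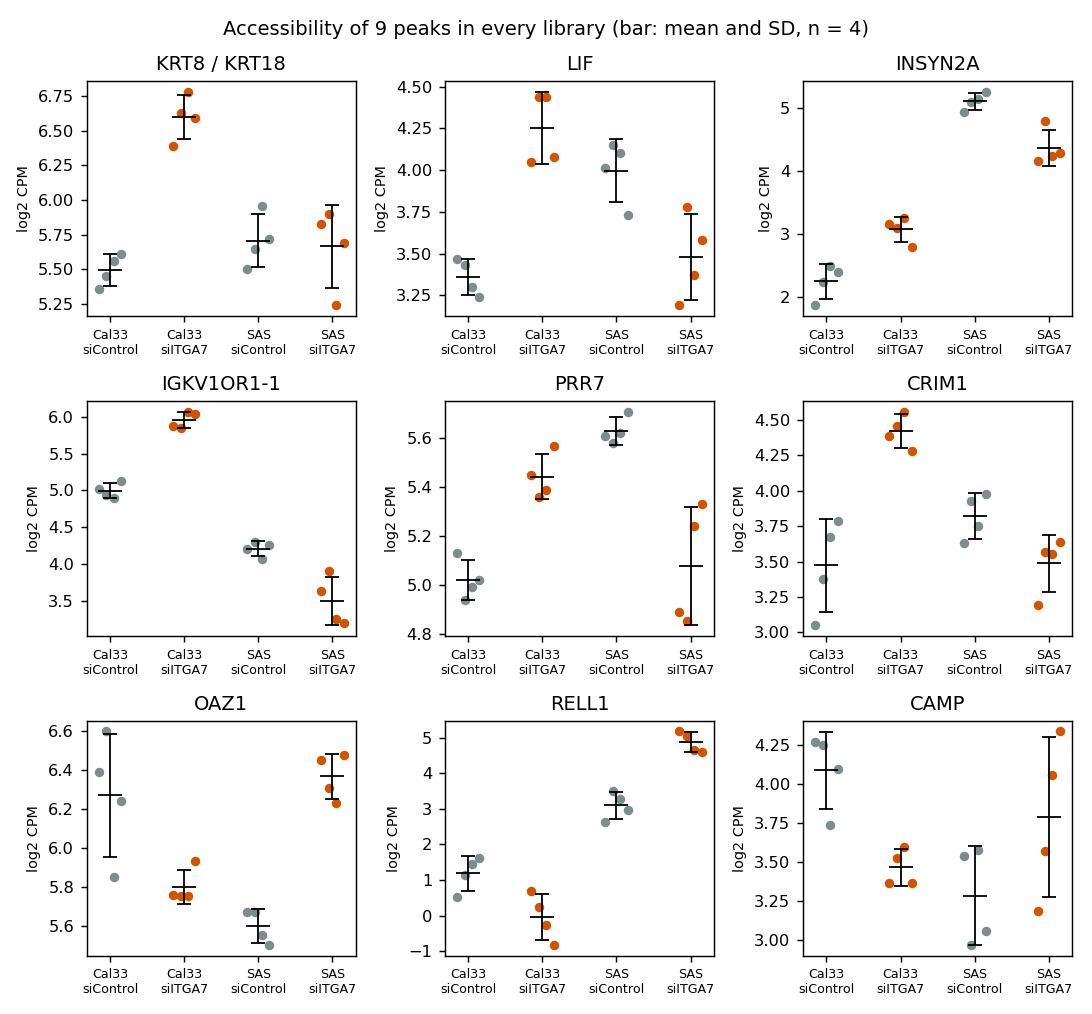
Log2 CPM of 9 peaks in each of the 16 libraries (points), with the mean and SD of each group of 4 (bars); the vertical scale differs between panels. The KRT8 and KRT18 peak rose in Cal33 and was not called in SAS, while the OAZ1 and RELL1 peaks are higher after siITGA7 in SAS and lower in Cal33.

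Opposite changes in the lines, each called, marked the next peaks. INSYN2A encodes a protein of inhibitory synapses, and an intronic peak of it (chr10:127148133-127150468) had a difference of 1.57 ± 0.25 (SE, adjusted p = 5.32e-05). Levels in Cal33 were 1.87, 2.24, 2.50 and 2.40 log2 CPM without and 3.16, 3.10, 3.25 and 2.79 with siITGA7; in SAS the siControl libraries read 4.93, 5.09, 5.13 and 5.25 and the siITGA7 libraries 4.15, 4.79, 4.23 and 4.28. No library of the treated group overlaps its controls in either line, and SAS stays above Cal33 throughout. A second such peak lay near IGKV1OR1-1, an immunoglobulin kappa pseudogene in a duplicated region of chromosome 1 (chr1:144101394-144104711), with a difference of 1.68 ± 0.23 (SE, adjusted p = 1.01e-06). Cal33 controls gave 5.02, 4.94, 4.89 and 5.13 log2 CPM and Cal33 siITGA7 libraries 5.87, 5.85, 6.07 and 6.04; in SAS the siControl libraries read 4.20, 4.30, 4.07 and 4.26 and the siITGA7 libraries 3.63, 3.90, 3.26 and 3.20. Neither line has overlapping groups here. Because near-identical copies exist there, how reads were split between them is uncertain.

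Smaller opposite changes were found at 3 further genes. A promoter-class peak of LINC00941, a long non-coding RNA, went from 5.22 ± 0.14 to 5.78 ± 0.10 log2 CPM (SD, n = 4) in Cal33 and from 5.54 ± 0.15 to 5.03 ± 0.13 in SAS, a difference of 1.09 ± 0.19 (SE, adjusted p = 0.000237). The intronic peak of KCTD2, a BTB domain protein, had a difference of 0.98 ± 0.18 (SE, adjusted p = 0.000633). That of FRMD3-AS1, an antisense RNA, had a difference of 1.33 ± 0.24 (SE, adjusted p = 0.000677). In all of these the treated libraries lie above the controls in Cal33 and below them in SAS.

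In the other direction the peaks were lower after siITGA7 in Cal33 and higher in SAS. A promoter-class peak of OAZ1, which encodes the antizyme that restrains polyamine synthesis (chr19:2269089-2271939), had a difference of -1.26 ± 0.18 (SE, adjusted p = 1.6e-06). In Cal33 it read 6.39, 6.60, 5.85 and 6.24 log2 CPM in the siControl libraries and 5.76, 5.75, 5.75 and 5.93 after siITGA7; in SAS the siControl libraries read 5.67, 5.67, 5.55 and 5.50 and the siITGA7 libraries 6.45, 6.31, 6.23 and 6.48. The SAS groups are apart and 1 Cal33 control lies within the treated range. An intronic peak of RELL1, a membrane protein of the RELT family (chr4:37604554-37604952), had a difference of -3.35 ± 0.46 (SE, adjusted p = 1.01e-06). The 4 Cal33 siControl libraries stood at 0.52, 1.15, 1.46 and 1.62 log2 CPM and the 4 treated ones at 0.70, 0.23, -0.27 and -0.83; in SAS the siControl libraries read 2.63, 3.50, 3.28 and 2.97 and the siITGA7 libraries 5.18, 5.05, 4.65 and 4.61. At RELL1 the SAS groups are apart and the Cal33 groups overlap, and its raw counts in SAS were 22 to 50 before and 33 to 54 after siITGA7. The OAZ1 and RELL1 peaks were chosen after their values were seen, since their nearest start has no symbol.

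Several of the lowest differences shared this RELL1 profile of a low level in Cal33 and a rise in SAS. The intergenic peak near LOC124902630, an uncharacterised locus, had a difference of -4.05 ± 0.63 (SE, adjusted p = 2.91e-05) and went from 2.96 ± 0.28 to 5.08 ± 0.15 log2 CPM in SAS. Its counts were 1 to 6 in Cal33 libraries, 20 to 34 in SAS siControl and 36 to 69 in SAS siITGA7, although the last group has the lowest totals. The peaks nearest to RNU5A-2P, KCNH2, CYP11B2 and SETD5 rose in SAS by 1.49 ± 0.19, 1.63 ± 0.19, 1.53 ± 0.19 and 1.50 ± 0.20 (SE) to group means between 4.74 and 5.18 log2 CPM, with Cal33 means between -0.46 and 0.91. KCNH2 encodes a cardiac potassium channel, CYP11B2 aldosterone synthase and SETD5 a SET domain protein, a chromatin regulator. Raw SAS counts at these peaks overlapped between the groups while library totals fell: 33 to 58 in siControl and 35 to 63 in siITGA7 at RNU5A-2P, 28 to 62 and 33 to 68 at KCNH2, 32 to 73 and 38 to 71 at CYP11B2, and 26 to 45 and 26 to 62 at SETD5. Their rise is thus one relative to the other peaks of the same libraries. At these 4 peaks the Cal33 change was not called. That these peaks were set together was decided after their values were seen.

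Other low differences came from peaks open in Cal33. A promoter-class peak near LOC145845 went from 4.29 ± 0.24 to 3.76 ± 0.31 log2 CPM in Cal33 and from 0.53 ± 0.49 to 1.97 ± 0.71 in SAS, a difference of -2.64 ± 0.49 (SE, adjusted p = 0.00111). An intronic peak of SMOC1, a matricellular protein of basement membranes, had a difference of -2.57 ± 0.54 (SE, adjusted p = 0.00435), and a peak near RPL26P8, a ribosomal pseudogene, had one of -2.34 ± 0.55 (SE, adjusted p = 0.0148). Raw SAS counts were low at these peaks. At LOC145845 they were 3 to 6 in siControl and 2 to 11 in siITGA7. At SMOC1 they were 4 to 6 and 1 to 9, and the SAS groups overlap in log2 CPM. At RPL26P8 they were 2 to 6 and 2 to 8, and its SAS change was not called. An intronic peak of CHL1, a neural adhesion molecule, was called, but it held 0 counts in all 4 SAS siControl libraries and 1 to 3 in the siITGA7 libraries, so its fitted difference depends on the prior count and is no bound. In Cal33 it read 3.46 ± 0.41 and 3.46 ± 0.22 log2 CPM.

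A pair of peaks lay in nuclear copies of mitochondrial DNA on chromosome 1. The peaks of the pseudogenes MTATP6P1 and MTND2P28 had differences of -1.10 ± 0.18 (SE, adjusted p = 6.58e-05) and -0.98 ± 0.17 (SE, adjusted p = 0.000438). MTATP6P1 went from 8.96 ± 0.25 to 8.47 ± 0.19 log2 CPM in Cal33 and from 10.29 ± 0.27 to 10.91 ± 0.21 in SAS, with no overlap of groups in either line. Reads of the mitochondrial genome can map to these copies, so whether the counts come from the nucleus is uncertain.

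Of the 8 highest differences that the naming rule gave, 5 came from peaks that fell in SAS. A peak near RNU6-1085P went from 2.09 ± 0.40 to 0.29 ± 1.00 log2 CPM in SAS, where the treated libraries held 0 to 3 counts, with a difference of 2.26 ± 0.53 (SE, adjusted p = 0.0143). A promoter-class peak of RASGEF1C, a guanine nucleotide exchange factor, fell in SAS by 2.56 ± 0.42, with 17 to 45 counts in controls and 1 to 3 after siITGA7, and had a difference of 2.09 ± 0.51 (SE, adjusted p = 0.0227). For TMEFF1, a transmembrane protein, and LOC105370024 the differences were 1.74 ± 0.41 (SE, adjusted p = 0.0168) and 1.78 ± 0.36 (SE, adjusted p = 0.00332), again with a called fall in SAS alone. Their SAS siITGA7 libraries held 2 to 6 and 1 to 5 counts. The peaks with LOC100418938 and LINC02620 as nearest start rose in Cal33 without a called change in SAS. Their differences were 2.23 ± 0.52 (SE, adjusted p = 0.0139) and 1.77 ± 0.39 (SE, adjusted p = 0.00902). The first is an intron-class peak at -16987 bases from that start, with 0 to 4 counts in SAS siITGA7. The second lies in an intron of CFAP58, 55316 bases from the LINC02620 start. An intronic peak of LINC02930, 96631 bases from its start, rose in Cal33 and fell in SAS, with a difference of 1.82 ± 0.40 (SE, adjusted p = 0.00665).

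For MME, the gene of the peptidase neprilysin, 1 library moved the value. Its intronic peak held 0 to 6 counts in Cal33 siControl and 8 to 10 in Cal33 siITGA7, and read 4.22 ± 0.22 and 3.63 ± 0.21 log2 CPM in SAS. The difference was 2.11 ± 0.57 (SE, adjusted p = 0.045), and 3.96 without Cal33 siControl replicate 3. Over 30 alternatives it ran from 0.32 to 3.96. The call was lost under 16 of 30 alternatives.

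Promoters of protein-coding genes gave 33 peaks (0.534%) more positive in Cal33 and 12 (0.194%) more positive in SAS among 6185 peaks within 1 kb of a start. The 0.728% called in either direction is near the 0.761% of all tested peaks. It was 1.03% in the 10413 other promoter-class peaks and 0.728% in all other classes. The 300 bases around the start of 5 protein-coding genes are shown because a called peak covers them whole. They come from RefSeq on GRCh38.p14, written 5′ to 3′, from 250 bases before the start to 50 after it. They are all the windows inside their peak among the 8 genes named here. Capitals mark a match to the AP-1 motif TGANTCA or the TEAD motif GGAATG, searched on both strands. PRR7 is at chr5:177446564-177446863 (plus strand), MARCHF4 at chr2:216372434-216372733 (minus), FAM151B at chr5:80487850-80488149 (plus), CAMP at chr3:48223245-48223544 (plus) and TREX1 at chr3:48465580-48465879 (plus).
PRR7: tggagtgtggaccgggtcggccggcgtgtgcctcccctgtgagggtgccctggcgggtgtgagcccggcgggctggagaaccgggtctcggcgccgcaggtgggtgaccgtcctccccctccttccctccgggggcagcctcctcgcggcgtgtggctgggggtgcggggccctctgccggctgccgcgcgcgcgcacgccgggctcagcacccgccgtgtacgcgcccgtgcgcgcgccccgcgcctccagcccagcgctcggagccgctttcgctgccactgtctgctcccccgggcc
MARCHF4: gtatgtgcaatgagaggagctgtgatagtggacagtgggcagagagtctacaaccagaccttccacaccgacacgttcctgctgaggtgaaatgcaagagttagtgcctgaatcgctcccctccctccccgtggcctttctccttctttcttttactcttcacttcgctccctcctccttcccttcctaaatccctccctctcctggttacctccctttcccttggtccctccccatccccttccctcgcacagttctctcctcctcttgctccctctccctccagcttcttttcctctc
FAM151B: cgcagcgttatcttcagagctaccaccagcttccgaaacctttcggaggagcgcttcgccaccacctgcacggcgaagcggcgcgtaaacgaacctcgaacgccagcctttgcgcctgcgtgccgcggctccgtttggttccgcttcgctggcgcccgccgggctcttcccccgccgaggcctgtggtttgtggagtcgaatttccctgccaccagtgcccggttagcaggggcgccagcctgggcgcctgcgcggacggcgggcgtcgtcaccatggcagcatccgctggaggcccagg
CAMP: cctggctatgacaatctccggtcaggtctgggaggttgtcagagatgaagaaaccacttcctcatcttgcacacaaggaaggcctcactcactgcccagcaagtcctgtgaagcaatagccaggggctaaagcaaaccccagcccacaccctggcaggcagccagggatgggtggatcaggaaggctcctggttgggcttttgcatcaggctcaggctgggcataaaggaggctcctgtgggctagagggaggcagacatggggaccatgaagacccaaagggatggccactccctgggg
TREX1: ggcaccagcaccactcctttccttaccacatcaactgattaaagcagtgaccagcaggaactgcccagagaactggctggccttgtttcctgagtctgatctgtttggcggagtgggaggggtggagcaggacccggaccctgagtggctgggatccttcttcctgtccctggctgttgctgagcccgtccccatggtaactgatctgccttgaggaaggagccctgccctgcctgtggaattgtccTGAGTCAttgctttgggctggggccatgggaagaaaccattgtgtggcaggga

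The first 3, more positive in Cal33, had G and C at 78.3%, 55.0% and 68.3% of bases and 40, 6 and 37 CpG sites. CAMP and TREX1, more positive in SAS, had 58.3% and 57.7% with 1 and 3 CpG sites, so the directions overlap in base composition. Over all 4143 tested genes whose start window lies inside a promoter peak the medians were 66.0% and 27 sites. For 26 such genes more positive in Cal33 they were 67.7% and 29.5, and for 5 more positive in SAS 57.7% and 3. The AP-1 letters stood in 0 of those 26 windows, 2 of those 5 and 5.26% of the 4143, and in 7.71% of all 35116 windows of the table. The TEAD letters stood in 0 of the 26, 1 of the 5, 10.1% of the 4143 and 4928 of all 35116. These shares describe the windows, and 5 windows are too few to compare.

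PRR7 encodes a transmembrane adaptor. Its promoter peak (chr5:177446347-177448368) had a difference of 0.94 ± 0.18 (SE, adjusted p = 0.00201). Levels in Cal33 were 5.13, 4.94, 4.99 and 5.02 log2 CPM without and 5.45, 5.36, 5.39 and 5.57 with siITGA7; in SAS the siControl libraries read 5.61, 5.58, 5.62 and 5.71 and the siITGA7 libraries 4.89, 4.85, 5.24 and 5.33. Neither line has overlapping groups, and the changes were 0.42 ± 0.12 (adjusted p = 0.0105) and -0.52 ± 0.14 (adjusted p = 0.0217). MARCHF4, a membrane-bound ubiquitin ligase, rose in Cal33 and had a difference of 0.98 ± 0.20 (SE, adjusted p = 0.00399). PFDN2, a prefoldin subunit that shares its promoter with NIT1, and FAM151B fell in SAS without a called change in Cal33, with differences of 1.13 ± 0.24 (SE, adjusted p = 0.0056) and 0.88 ± 0.20 (SE, adjusted p = 0.00914).

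Promoters with the opposite sign fell in Cal33 and were not called in SAS. CAMP encodes cathelicidin, an antimicrobial peptide of epithelia and neutrophils. Cal33 controls gave 4.27, 4.25, 3.74 and 4.10 log2 CPM and Cal33 siITGA7 libraries 3.37, 3.53, 3.60 and 3.37; in SAS the siControl libraries read 3.54, 2.97, 3.58 and 3.06 and the siITGA7 libraries 3.19, 3.57, 4.06 and 4.34. The Cal33 groups are apart and the SAS groups overlap, with a difference of -1.23 ± 0.26 (SE, adjusted p = 0.00572). For TREX1, the exonuclease that degrades DNA in the cytosol, the level went from 6.64 ± 0.12 to 6.00 ± 0.06 log2 CPM in Cal33 and from 5.49 ± 0.04 to 5.59 ± 0.08 in SAS, a difference of -0.75 ± 0.18 (SE, adjusted p = 0.014). ALDH3B2, an aldehyde dehydrogenase, and MKNK2, a kinase of the translation factor eIF4E, had differences of -1.26 ± 0.26 (SE, adjusted p = 0.00372) and -0.90 ± 0.20 (SE, adjusted p = 0.00792). TREX1 lost its call under 7 alternatives, CAMP and MKNK2 under 2 each, and ALDH3B2 under none of those run.

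Gene lists were read against the background of 0.761% called and a median difference of 0.02. Each peak was given to the gene with the nearest start. Adhesion lists held 0 or 1 call each. Laminin-binding integrins had 0 of 11 peaks called, other integrins 1 of 48 (2.08%), laminins and basement membrane 0 of 59, focal adhesion genes 1 of 100 (1.00%) and epithelial junctions 0 of 76. The called peaks were an intronic one of ITGA11, a chain of a collagen receptor, at 1.56 ± 0.41 (SE, adjusted p = 0.039), and one near PTK2, the focal adhesion kinase, at 0.88 ± 0.24 (SE, adjusted p = 0.0464). The ITGA11 call was lost under 12 alternatives and the PTK2 call under 21. With peaks given to the gene they are annotated in, laminins and basement membrane had 2 of 136 called (1.47%), in COL4A2, a collagen IV chain, and NID1, nidogen, both more positive in Cal33.

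YAP and TEAD targets had 3 of 95 peaks called (3.16%), all more positive in Cal33, and a median difference of 0.24, from medians of 0.16 in Cal33 and -0.02 in SAS. CRIM1 encodes a membrane protein that binds bone morphogenetic proteins. In Cal33 it read 3.05, 3.38, 3.67 and 3.79 log2 CPM in the siControl libraries and 4.39, 4.46, 4.56 and 4.28 after siITGA7; in SAS the siControl libraries read 3.63, 3.93, 3.75 and 3.98 and the siITGA7 libraries 3.19, 3.57, 3.55 and 3.64. Every treated Cal33 library is above its controls and the SAS groups overlap by 1 value, with a difference of 1.22 ± 0.25 (SE, adjusted p = 0.00412). F3, the gene of tissue factor, had a difference of 1.01 ± 0.24 (SE, adjusted p = 0.0185), and the third called gene, outside the naming rule, was GADD45A. Inflammatory and NF-kB genes had 2 of 59 called, the LIF and CSF2 peaks above, and a median of 0.14. With peaks given to the gene they are annotated in, the YAP and TEAD list had 4 of 170 called and a median of 0.12, and the inflammatory list 3 of 61 and 0.17.

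Lists of squamous identity and differentiation held 1 call each, and the lineage markers 1 in the other direction. An intronic peak of EGFR, the epidermal growth factor receptor, was the 1 call of 66 basal squamous peaks, at -1.98 ± 0.52 (SE, adjusted p = 0.0406). This call was lost under 14 of 29 alternatives. A peak upstream of KRT13, a keratin of stratified mucosa, was the 1 call of 52 keratinocyte differentiation peaks, and went from 6.31 ± 0.24 to 5.80 ± 0.18 log2 CPM in Cal33 and from 3.75 ± 0.29 to 4.30 ± 0.33 in SAS, a difference of -1.01 ± 0.23 (SE, adjusted p = 0.0126), lost under 6 of 32. The medians of these lists were -0.08 and -0.17, and 0.02 and -0.06 with peaks given to their annotated gene. Squamous lineage markers had 1 of 36 called, the KRT18 peak, which belongs to KRT8 by annotation and so leaves 0 of 57 when peaks follow their annotated gene.

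Signalling and stress lists had 0 or 1 call each. Hypoxia genes had 1 of 46 called, in NDRG1, a gene induced by low oxygen, at -2.14 ± 0.47 (SE, adjusted p = 0.00865), with a list median of -0.21. MAPK feedback genes had 1 of 83, at IER3, an early response gene, at -0.66 ± 0.18 (SE, adjusted p = 0.0442), lost under 20 alternatives. Proliferation genes had 1 of 41, an exonic peak of the checkpoint kinase BUB1 at 1.54 ± 0.42 (SE, adjusted p = 0.047), lost under 17, and chromatin regulators 1 of 72, the SETD5 peak. AP-1 members (40 peaks), interferon response (43), p53 targets (38), DNA damage genes (27), lamina and LINC genes (41), mesenchymal drivers (68) and constitutive controls (34) had 0 called each. By annotated gene the MAPK list had 0 of 101 and the lamina and LINC list 1 of 62, in SYNE1, a nesprin.

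Marker genes of other cell types held 2 calls, 1 in each direction. Endothelial and blood markers had 2 of 53 called (3.77%), or 2 of 131 (1.53%) by annotated gene. These were an intronic peak of CDH5, the endothelial cadherin, at 0.98 ± 0.19 (SE, adjusted p = 0.00201), and one annotated in VWF, von Willebrand factor, at -2.09 ± 0.50 (SE, adjusted p = 0.0165). The latter has the transcription end class and lies at -50735 bases from the nearest VWF start. The VWF peak held 0 to 8 counts in Cal33 libraries. Fibroblast markers had 0 of 13 called.

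**Figure D5:**
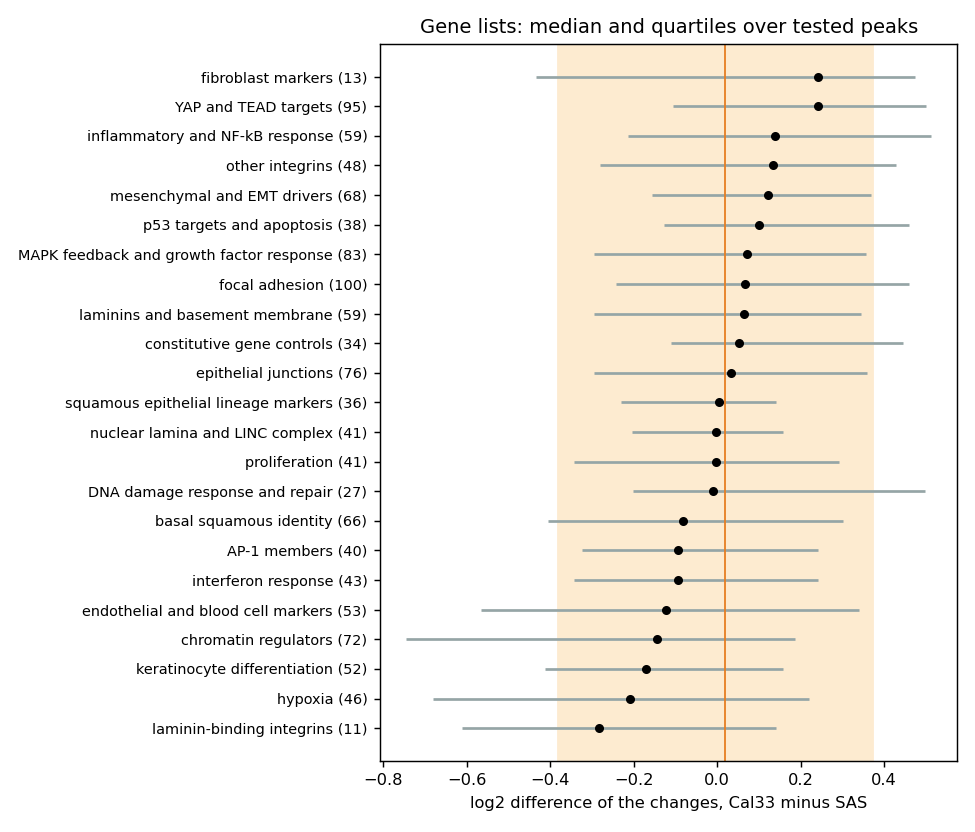
Median (point) and quartiles (line) of the log2 difference over the tested peaks of each gene list, with the number of peaks in brackets; the orange line and band are the median (0.02) and quartiles over all tested peaks. The medians run from -0.28 for laminin-binding integrins to 0.24 for fibroblast markers and for YAP and TEAD targets, all inside the quartiles of all peaks. With peaks given to their annotated gene, the laminin-binding integrins turn to 0.14 and the fibroblast markers to -0.12.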

How the data were processed

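The authors deposited raw counts per peak and library, per the file headers, for 164980 peaks common to both lines, and a normalized signal, per the file headers, which is the raw count times 1 constant per library and was not used in tests. The submitters' processing notes name GRCh38 (hg38) as the build and bcl2fastq 2.20.0. For the aligner, peak caller, transposase shift and duplicate handling, tool and setting were not given in the sources used here. Class, nearest start and coordinates are those of the deposited annotation. Its identifiers were matched by position to RefSeq (GRCh38.p14): 33283 of 45291 (73.5%), and 13978 of 14861 protein-coding ones.

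Counts of all 16 libraries were fitted together with edgeR 4.0.16 (R 4.3.3): TMM factors, filterByExpr, robust quasi-likelihood F-test, Benjamini-Hochberg over 94918 peaks, threshold 0.05. Log2 CPM used a prior count of 2. Standard errors were derived from the F statistic. The fit was tested on simulated data, in which TMM factors shifted the difference of unchanged peaks above 0, by about as much as the promoter median given above, and median-ratio factors did not, so the sign of small medians depends on the scaling. Errors cover the spread between libraries, and reads are not known to be independent molecules. Depth per group is given in the report. Alternatives used DESeq2 1.42.0 and limma 3.58.1, other scalings, filters, thinning, replicate blocks and left-out libraries.

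The members, lists and rules were chosen with earlier results of these data known. The naming rule took ITGA7 peaks, the 8 highest and 8 lowest differences of at least median level with a line whose groups do not overlap, the 5 smallest p per direction with opposite calls, the 4 per direction at protein-coding promoters, and up to 2 genes per list. The labels carry replicate numbers under a tag named batch. Deviations of same-numbered siControl and siITGA7 libraries correlated between -0.201 and 0.006, so the numbers did not deviate together.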

Additional observations from a re-analysis of the deposited data

Results flagged for a closer look

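The total counts in peaks changed differently in the lines, by 2.12 on the log2 scale. Each named peak whose difference passed the test is listed here with its log2 difference, positive where the change was more positive in Cal33. The highest ones were 2.26 (RNU6-1085P), 2.23 (LOC100418938), 2.11 (MME), 2.09 (RASGEF1C), 1.82 (LINC02930), 1.78 (LOC105370024), 1.77 (LINC02620), 1.74 (TMEFF1). Peaks with opposite calls gave 1.68 (IGKV1OR1-1), 1.57 (INSYN2A), 1.09 (LINC00941), 0.98 (KCTD2), 1.33 (FRMD3-AS1) and, below 0, -4.05 (LOC124902630), -2.64 (LOC145845), -1.10 (MTATP6P1), -0.98 (MTND2P28), -2.57 (SMOC1), -1.26 (OAZ1), -3.35 (RELL1). Promoters gave 0.94 (PRR7), 0.98 (MARCHF4), 1.13 (PFDN2), 0.88 (FAM151B), -1.26 (ALDH3B2), -1.23 (CAMP), -0.90 (MKNK2), -0.75 (TREX1). Peaks of the gene lists gave 1.56 (ITGA11), 0.88 (PTK2), 1.22 (CRIM1), 1.01 (F3), 1.40 (LIF), 0.76 (CSF2), 1.54 (BUB1), 0.98 (CDH5), 1.15 (KRT18) and, below 0, -1.98 (EGFR), -1.01 (KRT13), -0.66 (IER3), -2.14 (NDRG1), -2.09 (VWF). The lowest others were -2.69 (RNU5A-2P), -2.45 (KCNH2), -2.34 (RPL26P8), -2.30 (CYP11B2), -2.26 (SETD5). The CHL1 peak had a fitted value of -5.51, which depends on the prior count and is no bound, since its SAS siControl libraries held 0 counts.

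In 8 of 224 groups of 4 libraries examined, 1 library stood far from the other 3, where chance gives about 1 in 20. In log2 CPM these were 2.79 for ITGA7 in SAS siITGA7 replicate 1, -1.21 for RNU6-1085P in SAS siITGA7 replicate 2, 1.24 for RASGEF1C in Cal33 siITGA7 replicate 2 and 5.30 for LOC124902630 in SAS siITGA7 replicate 1. The others were 4.47 for SETD5 in SAS siITGA7 replicate 2, 1.27 for SMOC1 in SAS siControl replicate 2, 2.79 for NDRG1 in SAS siITGA7 replicate 4 and 5.93 for OAZ1 in Cal33 siITGA7 replicate 4.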

How the results depend on the processing

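The 722 calls, 466 more positive in Cal33 and 256 in SAS, became 260 (117 and 143) with DESeq2, 1121 (433 and 688) with offsets trended on peak level, 1441 (1226 and 215) with no filter, 85 (28 and 57) after thinning and 1497 (977 and 520) with sequencing runs as covariate. With limma-voom 440 were more positive in SAS, with median-ratio factors 234 in Cal33, with a mean of at least 50 counts 516 in SAS, with the filter in each line 464 in SAS, and without both SAS libraries numbered 1 there were 434 (308 and 126). In the 13 libraries with 1 sequencing run, chosen after seeing the data, there were 1631 (1299 and 332), with 3875 calls in Cal33 and 4392 in SAS. No filter moved the median difference of all peaks from 0.02 to 0.14. Leaving out each library gave 421 to 1495 calls, 300 to 889 more positive in Cal33 and 121 to 606 in SAS, of which 351 to 672 were among the 722 with the same sign. The replicate block within each line gave 527 calls and the block shared by both lines 613, neither moved by over 1.5 times. Of 48 named called peaks the block within each line lost 4. Among the named peaks still tested after thinning, 24 lost their call, 10 stayed the same and 1 reversed.

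Calls within lines, 8273 in Cal33 and 2887 in SAS, were 4119 and 1512 with DESeq2 and 877 and 377 after thinning; in SAS they were 5036 with no filter, 903 with a mean of at least 50 counts, 969 with the filter in each line and 1413 without both SAS libraries numbered 1. Leaving out each library gave 5299 to 11079 in Cal33 and 1689 to 4747 in SAS. Calls of the fit of all tested peaks were also counted among the peaks that pass the filter in each line. In siControl bins they were 3.33%, 1.96%, 1.40%, 0.81% and 1.46% from the lowest bin to the highest. These shares are not from the fit of those peaks alone. With bins of both treatments, 0.524% of all tested peaks from -2 to -1 were called. Spearman correlation of the lines' changes was 0.25 with a mean of at least 50 counts and 0.0723 to 0.106 without each library. Leaving out each library, the promoter share difference ran from -1.07 to 1.17 points, the intergenic from -0.531 to 0.25, the intron from -0.0806 to 1.36, the exon from -0.0151 to 0.0457 and the transcription end from -0.27 to -0.178, none past the threshold. The depth difference stayed between 1.87 and 2.41. The BLOC1S1 start peak of ITGA7 reversed to -0.068 after thinning; the cause of these changes was not tested. The median standard error of the change was 0.36 in SAS, where siITGA7 libraries are shallowest, and 0.25 in Cal33.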
